A study of Mus musculus with 6 samples.

Results

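The histone genes and small nuclear and nucleolar RNAs of the wild-type mouse retina are described here across 3 pools of retinas. Members were the rows whose symbol starts with Hist and a digit and h, or with H2af, H3f3, H1f, Scarna, Snora or Snord, together with Rmrp and Rpph1. They numbered 118 of 15465 genes. Of these, 29 were replication-dependent histone genes of the Hist1 to Hist4 clusters, 13 were replacement histone genes, 47 were box C/D snoRNAs (Snord), 23 were box H/ACA snoRNAs (Snora), 4 were Cajal body RNAs (Scarna), and 2 were the RNA parts of ribonucleases MRP and P (Rmrp and Rpph1). The small RNA rows are the RNAs themselves, and none of the members is a host gene. The set was proposed with earlier results of these data known, in which Rmrp, Scarna2 and Scarna9 differed between pools, so its levels and spreads are given as a description.

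All samples were retina of C57BL6/J mice of wild-type genotype, with no treatment named. By their titles, the 6 samples fall into 3 biological replicates, called pools 1, 2 and 3 here because RNA of 5 mice went into a library. Each was sequenced as 2 technical replicates that share 1 column of values, so n was 3. The source labels give another numbering than the titles, which were followed. If the source labels held, the 3 columns would share material, and p-values measure only the spread between these columns. Age and sex are not given in the labels. Whether RNA was selected by its poly(A) tail is also not given in the sources used here. One label speaks of mRNA and another of total RNA.

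Most messenger RNAs end in a poly(A) tail. Messages of replication-dependent histones, which supply nucleosomes during DNA synthesis, instead end just after a short stem-loop bound by SLBP, and they are made mainly in dividing cells. Replacement histones such as H3.3 and H2A.Z are made throughout the cell cycle from ordinary polyadenylated messages and are the main source of new histone in neurons that no longer divide. C/D snoRNAs guide methylation of ribosomal RNA and H/ACA snoRNAs guide its pseudouridylation. Most mammalian snoRNAs are cut from introns of host genes, scaRNAs do the like for spliceosomal RNAs, and Rmrp and Rpph1 are transcribed by RNA polymerase III from genes of their own.

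A sequence typical of the replication-dependent class is shown first. The motif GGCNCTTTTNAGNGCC, where N is any base, was searched on the sense strand of the GENCODE M21 transcripts (build GRCm38). It occurred in 45 of 21877 protein-coding genes (0.206%), of which 42 had a Hist symbol. Among the 28 replication-dependent members with a transcript there, 19 held it. The sites below are from the 3 most abundant of these, from 2 histone H4 genes that differed between pools, and from H2afx. H2afx holds the motif but was placed among the replacement genes by its symbol, and it is counted there below. The sites are written 5′ to 3′ with the motif in capitals.
Hist1h1c: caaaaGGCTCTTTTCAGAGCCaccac
Hist3h2ba: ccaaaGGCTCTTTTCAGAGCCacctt
Hist3h2a: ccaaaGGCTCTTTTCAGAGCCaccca
Hist1h4d: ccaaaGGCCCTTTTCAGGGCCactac
Hist2h4: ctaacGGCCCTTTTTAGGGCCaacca
H2afx: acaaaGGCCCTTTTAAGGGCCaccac

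A choice of small RNAs is shown next, as GENCODE M21 gives them: 4 snoRNAs with means of 10 RPKM or more, and 3 RNAs called as differing between pools. Capitals mark matches to box C and box D in Snord37, Snord96a, Scarna9 and Scarna2 and the terminal ACA in Snora64 and Snora65. Rmrp has no such box and is in lower case.
Snord37: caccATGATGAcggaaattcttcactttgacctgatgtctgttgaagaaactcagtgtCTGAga
Snord96a: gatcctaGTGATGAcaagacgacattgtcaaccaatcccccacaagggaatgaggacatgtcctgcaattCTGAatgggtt
Snora64: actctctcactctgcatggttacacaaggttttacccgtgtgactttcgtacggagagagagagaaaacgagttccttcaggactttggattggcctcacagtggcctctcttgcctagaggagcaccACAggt
Snora65: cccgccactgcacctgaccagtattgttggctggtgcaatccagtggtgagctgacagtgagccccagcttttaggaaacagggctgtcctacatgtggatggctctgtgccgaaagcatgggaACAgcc
Scarna9: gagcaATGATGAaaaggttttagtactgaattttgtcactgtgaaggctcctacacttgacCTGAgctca
Scarna2 (last 100 of 414 bases): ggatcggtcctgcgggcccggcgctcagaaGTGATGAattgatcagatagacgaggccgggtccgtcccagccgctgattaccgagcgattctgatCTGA
Rmrp: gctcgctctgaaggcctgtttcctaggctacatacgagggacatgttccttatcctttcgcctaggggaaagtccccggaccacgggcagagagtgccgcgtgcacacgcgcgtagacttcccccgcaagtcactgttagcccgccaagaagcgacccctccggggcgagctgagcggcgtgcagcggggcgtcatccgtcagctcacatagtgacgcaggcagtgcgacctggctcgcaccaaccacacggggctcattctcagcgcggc
In these annotated sequences, ACA stood within the last 9 bases of 21 of 23 H/ACA members, against 86 of 1383 other small nuclear RNA genes (6.22%). Box C, searched as NTGATGA in the first 30 bases, together with CTGA in the last 25 was found in 26 of 47 C/D members and in 0 of the 1383.

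The 3 libraries were of retina by their markers. The 12 rod genes summed to between 12656 and 15688 RPKM (reads scaled to transcript length and to library size) and none was at 0. In bulk tissue fewer cells of a type and less RNA per cell cannot be told apart. Genes of neighbouring tissues differed between pools. The 12 lens fibre genes summed to 683, 325 and 1833 RPKM in pools 1, 2 and 3, with 10 of 12 called by the test described below. The 9 pigment epithelium and melanin genes summed to 505, 480 and 273, with 4 of 8 tested called. The 8 cornea, conjunctiva and stroma genes summed to 21.6, 27.3 and 12.5, with 3 of 4 tested called. Rpe65 and Krt12, called in these lists, have digit-extended symbols in the sense defined below. The 8 skeletal muscle genes summed to 17.1, 26.5 and 6.04, with 4 of 6 tested called. Among the 4 was Myh13, with a digit-extended symbol (defined below), at 8.18, 0.01 and 0.01 RPKM, so much of the pool 1 sum rests on it. In the proliferation list the 21 genes had a median of 1.15 RPKM and 0 of the 11 tested were called. Its leading members were the mitotic kinase gene Cdk1 at 12.4 ± 1.58 RPKM (SD, n = 3), whose symbol is digit-extended in the sense defined below, Pcna, the replication clamp, at 10.2 ± 1.73 and Ccna2, the cyclin of S phase, at 7.23 ± 0.64. The lowest were the mitotic genes Bub1, Ccnb1, Mki67 and Top2a, with means from 0.0133 to 0.0333 RPKM.

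Replacement histones stood above the cluster histones in every pool. The median of the 13 replacement genes was 14.1, 18.4 and 12.1 RPKM in pools 1, 2 and 3, and that of the 29 replication-dependent genes was 0.86, 1.27 and 1.45. On the scale of log2(RPKM + 0.1) the difference between the medians was 3.54 ± 0.49 (SD, n = 3 pools). The groups overlapped widely, from 0.4 to 103 RPKM and from 0.01 to 69.3 RPKM in gene means. Among members with a mean of 1 RPKM or more (12 of 13 and 15 of 29), the difference was 1.83 ± 0.05. No p-value is given, since 3 pools cannot give an exact sign-flip p under 0.25 and the members were chosen with results known. By summed RPKM, replacement genes held 60.7% ± 1.04 of the signal on the 42 histone rows.

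H3f3b, 1 of the 2 genes for histone H3.3, was the most abundant member, with 95.6, 124 and 91.0 RPKM in pools 1, 2 and 3. Its partner H3f3a had 21.2, 24.8 and 22.1 RPKM, so H3f3b exceeded it 4.54 ± 0.436-fold (SD, n = 3). The replication-dependent H3 rows, Hist2h3c1 at 5.13 ± 1.46 RPKM and Hist2h3c2-ps at 6.98 ± 1.30, were far lower. Replacement genes therefore held 91.3% ± 0.541 of the signal summed over these 4 H3 rows. No H3 gene of the Hist1 cluster is among the members, so this is not a share of all H3 messages. Every 50-base stretch of the Hist2h3c1 transcript (100%) also occurs in transcripts of other genes, so its level is uncertain.

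The H2A rows were also mostly of the replacement kind, at 84.0% ± 1.33 of the RPKM summed over 14 rows, 6 of them replication-dependent. Without the macroH2A rows H2afy, H2afy2 and H2afy3, whose values are described below, the share was 73.0% ± 2.86. H2afv, which encodes H2A.Z.2, had 44.6, 55.2 and 38.8 RPKM, and H2afz, which encodes H2A.Z.1, had 3.51, 4.52 and 3.07. The ratio of H2afv to H2afz was 12.5 ± 0.258. For H2afz, 35.4% of 50-base stretches occur in other genes' transcripts, and for H2afv 0%. H2afx, whose product is phosphorylated at DNA breaks, had 23.1 ± 3.78 RPKM, and H2afj had 14.9 ± 3.2. Neither was called as varying between pools.

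Linker histones were the exception among the families with both kinds. The replacement share was 40.4% ± 2.80 of the signal summed over 7 H1 rows. Hist1h1c, which encodes H1.2, had 63.7, 89.2 and 55.2 RPKM and led all cluster genes. H1f0, the H1 of differentiated cells, had 31.9, 43.3 and 35.9 RPKM. Hist1h1c thus stood 1.86 ± 0.284-fold above H1f0 and 20.4 ± 4.16-fold above Hist1h1e. H1fx had 10.9 ± 2.47 RPKM, and the oocyte gene H1foo had 1.01.

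The replication-dependent class was carried by a few genes. Hist1h1c, Hist3h2ba, Hist3h2a and Hist1h2bc together took 79.7% ± 3.08 of its summed RPKM. The H2B gene Hist3h2ba had 55.6, 79.4 and 49.9 RPKM. The H2A gene Hist3h2a, of the same small cluster on chromosome 11 (GRCm38), had 25.4, 35.6 and 28.2. Hist1h2bc, an H2B gene of the large cluster on chromosome 13, had 17.5, 23.1 and 17.2 RPKM. Hist2h2be, a further H2B gene, had 5.35 ± 0.546. No pool stood apart in these 5 genes: pool 2 was highest in each as deposited, as it was for the scaling of all genes, and none was called by the test below.

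**Figure D1:**
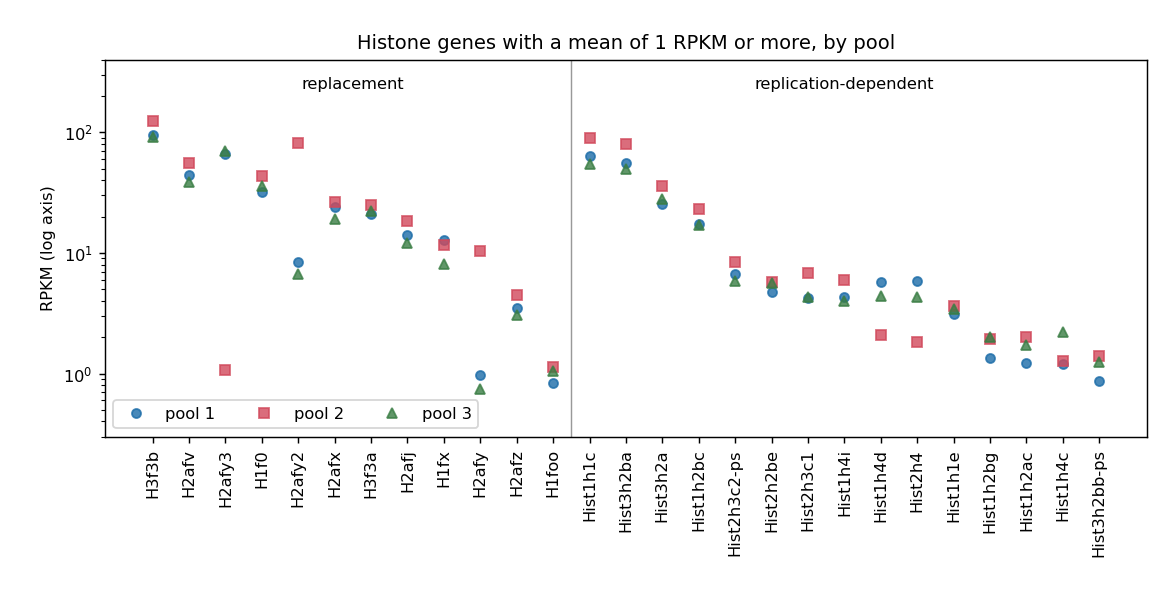
RPKM (log axis) of each histone gene with a mean of 1 RPKM or more, 1 point per pool, replacement genes left of the line and replication-dependent genes right of it, ordered by mean. H3f3b and Hist1h1c lead the classes, while H2afy, H2afy2, H2afy3, Hist1h4d and Hist2h4 are the genes whose pool 2 value lies far from pools 1 and 3.

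Levels of the cluster genes were then set against their annotated transcripts. In 16 genes the GENCODE transcript runs on for between 151 and 2445 bases after the stem-loop, and 11 of these had a mean of 1 RPKM or more, with a median of 2.58. In 3 genes the transcript ends 46 to 57 bases after it (Hist1h2bm, Hist1h4h and Hist2h2ac), and 0 of these reached 1 RPKM, with means from 0.0533 to 0.407. Of 9 genes with no match, 3 reached 1 RPKM (Hist1h2bc, Hist2h2be and Hist3h2bb-ps, the last a processed pseudogene in GENCODE). The transcripts of Hist1h4k, Hist1h2bn, Hist1h2ak, Hist1h4b and Hist1h2af have 312, 381, 393, 397 and 399 bases. Their RefSeq lengths are 409, 478, 536, 450 and 504, and a site past the GENCODE end could not be found. By length, 13 of the 19 genes with transcripts of 614 bases or more reached 1 RPKM, and 1 of the 9 with transcripts of 524 or fewer (Hist3h2bb-ps). RPKM divides by a length, and the lengths the authors used may differ from these GENCODE ones. RefSeq gives shorter lengths for several genes: 508 against 2146 bases for Hist3h2a, 462 against 614 for Hist3h2ba, 384 against 1630 for Hist2h4 and 439 against 2863 for Hist4h4. In addition, 7 of the 28 genes share 50% or more of their 50-base stretches with other genes. The relation is a description of these annotations.

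**Figure D2:**
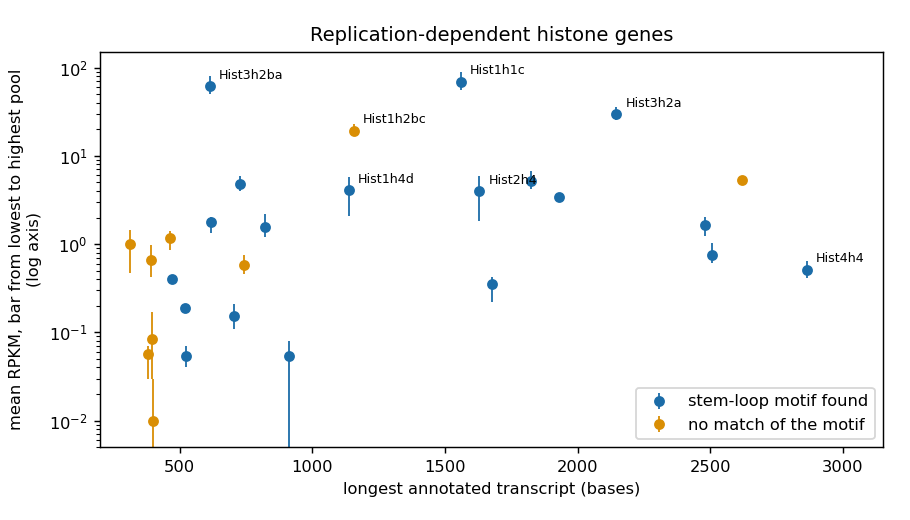
Mean RPKM (log axis) of 28 replication-dependent histone genes against the length of their longest GENCODE transcript in bases. Bars run from the lowest to the highest pool, and colour marks a match of the stem-loop motif. Bars that run off the lower edge include a pool listed at 0. Genes at or above 10 RPKM all have GENCODE transcripts of 614 bases or more, and several long transcripts, such as that of Hist4h4, are still under 1 RPKM.

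Differences between pools were assessed with limma, which set the variance of each gene's log2 values against that of genes of like abundance. It called 683 of 12562 genes (5.44%) at an adjusted p under 0.05 (Benjamini-Hochberg). Of the 118 members, 95 had the mean of 1 RPKM needed to be tested and 12 were called. By class these were 3 of 12 replacement histones, 2 of 15 replication-dependent histones, 3 of 4 scaRNAs, 2 of 2 ribonuclease RNAs, 2 of 40 C/D snoRNAs and 0 of 22 H/ACA snoRNAs. Results on this contrast were in view when the members were chosen, so nothing is read from the count. Without the 2160 genes whose symbol equals another symbol followed by digits, or is that shorter symbol (digit-extended symbols, 14 of them members), 1.87% of genes and 15 of the 82 members left were called. In 8 of the 95 members tested the highest pool was 4 or more times the lowest, against 4.37% of all genes tested.

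The 3 replacement genes called were the macroH2A rows. H2afy, which encodes macroH2A1, had 0.97, 10.3 and 0.75 RPKM in pools 1, 2 and 3 (adjusted p = 0.000476, limma). H2afy2, which encodes macroH2A2, had 8.48, 80.9 and 6.7 (adjusted p = 0.00016, limma). H2afy3, a processed pseudogene in GENCODE, had 66.6, 1.07 and 70.5 (adjusted p = 1.76e-05, limma). The same 3 sizes of value recur in each pool but on different rows: about 1, 8 and 67 in pool 1 on H2afy, H2afy2 and H2afy3, and in pool 2 the value near 1 stands on H2afy3, the value of 10.3 on H2afy and the value of 80.9 on H2afy2. Summed over the 3 rows, the pools had 76.0, 92.2 and 78.0 RPKM, which is 82.1 ± 8.86 (SD, n = 3). All 3 symbols are digit-extended. Without pool 2 none of the 3 was called (adjusted p = 0.987 each, limma). Which row is right in which pool was not tested, so no level of a single macroH2A gene is given as a result.

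**Figure D3:**
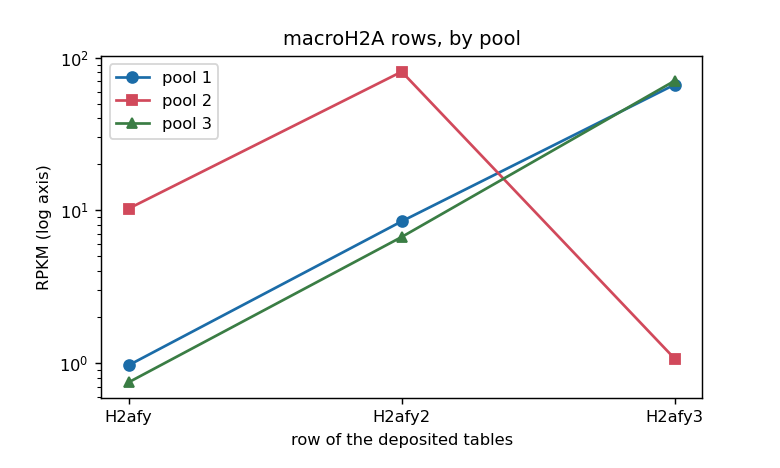
RPKM (log axis) on the rows H2afy, H2afy2 and H2afy3, 1 line per pool. Pools 1 and 3 rise from left to right to 66.6 and 70.5 RPKM on H2afy3, whereas pool 2 peaks on H2afy2 at 80.9 and falls to 1.07 on H2afy3.

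Both replication-dependent genes called encode histone H4. Hist1h4d had 5.72, 2.07 and 4.4 RPKM (adjusted p = 0.0291, limma) and Hist2h4 had 5.86, 1.82 and 4.35 (adjusted p = 0.0158, limma). They lie in different clusters, on chromosomes 13 and 3 (GRCm38), yet their values were nearly equal within each pool, with a ratio of 1.04 ± 0.0848 (SD, n = 3). Their GENCODE transcripts have 10.2% and 1.01% of 50-base stretches in common with other genes, and Hist2h4 shares most with Hist1h4d. These transcripts have 1138 and 1630 bases, against RefSeq lengths of 402 and 384, so the percentages depend on the annotation. Pool 2 was lowest in both, whereas in Hist1h4i, the most abundant H4 gene, it was highest (4.29, 5.95 and 3.98 RPKM). Neither call was kept when any 1 of the 3 pools was left out, with adjusted p between 0.0799 and 0.987 for Hist1h4d and between 0.057 and 0.987 for Hist2h4 (limma).

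How many reads lie behind the small RNAs could be worked out, because they are short and have no introns. RPKM multiplied by the RefSeq length fell on whole multiples of 1 step in each pool. The coarsest steps matched 75080000, 96160000 and 70690000 reads in pools 1, 2 and 3, where a read may also stand for a read pair. Within 0.1 of a whole read lay 84.1%, 81.2% and 84.1% of the 69 snoRNA values assessed per pool, where evenly spread values would give 20%. The step was fitted on the snoRNAs, and 10 of the 11 scaRNA and ribonuclease RNA values fine enough to be assessed were whole as well. Of the ribonuclease RNA values, only that of Rmrp in pool 3 was among the 11, at 0.0983 from a whole read. No value of Rpph1 was fine enough, and its values lay 0.116, 0.108 and 0.18 from whole in pools 1, 2 and 3. Rpph1 counts as whole below only with the rounding of the tables added. In pools 1 and 3 a depth 2 times as large was nearly as close, and in pool 2 so large a depth was not tried. The read numbers are thus the smallest that the values allow. For 62 of 76 small RNAs all 3 values were whole within 0.1 read plus the rounding of the tables, and reads are given only for those. The RefSeq lengths used can be shorter than the GENCODE sequences shown above. They were 61 against 414 bases for Scarna2, 42 against 70 for Scarna9 and 53 against 64 for Snord37.

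**Figure D4:**
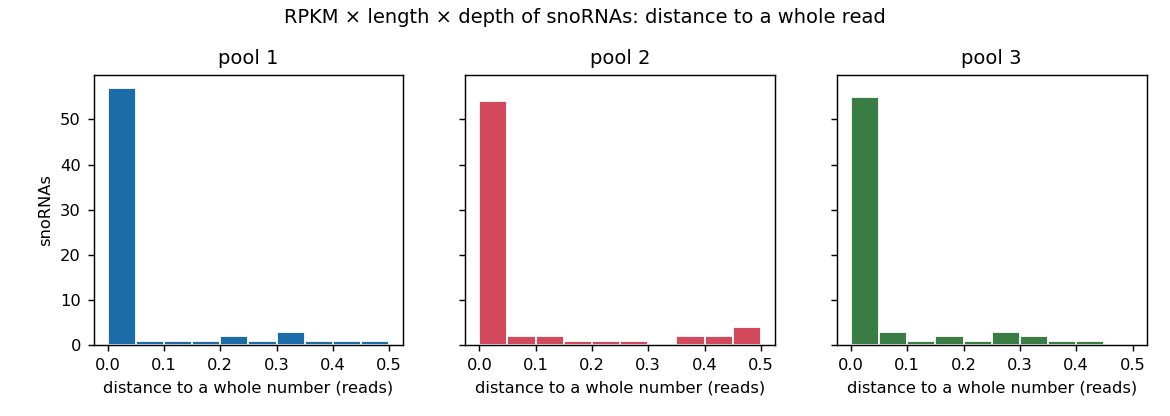
Number of snoRNAs by the distance of RPKM × RefSeq length × depth from the nearest whole read, 1 panel per pool. Most snoRNAs are in the first bar, within 0.05 of a whole read, in each of the 3 pools.

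Small RNAs rested on few reads. Over the 62, the median was 17, 24 and 17 reads in pools 1, 2 and 3, and 41 had under 20 reads in at least 1 pool. Only 3 had 100 or more reads in every pool. They are Rpph1, Scarna17 and Snora64. Snord12 was at 5, 1 and 0 reads and Snord43 at 4, 0 and 5, and the 95% exact Poisson interval of a count of 0 reaches 3.69 reads. Intervals on reads cover counting error only.

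SnoRNAs were low. C/D members had a median of 2.56, 2.88 and 2.69 RPKM in pools 1, 2 and 3, and H/ACA members 1.95, 3.39 and 3.26. Of the 70, 5 had a mean of 10 RPKM or more. Snora64, which lies in the ribosomal protein gene Rps2, had 15.4, 18.2 and 12.6 RPKM on 135, 205 and 104 reads. Snord37, in the elongation factor gene Eef2, had 14.8, 11.2 and 19.8 RPKM on 59, 57 and 74 reads. The others were Snord96a in Gnb2l1 (14.03 ± 3.33 RPKM, SD, n = 3), Snord91a in Tsr1 (12.0 ± 1.97) and Snora65 in Rpl12 (10.1 ± 2.85).

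Between 5 and 10 RPKM stood a further 9 of the named snoRNAs. These were Snord42b (9.20 RPKM), Snora61 (8.88), Snora43 (8.21), Snord100 (7.51), Snora68 (6.31), Snord104 (6.20), Snord35b (6.04), Snord45b (5.95) and Snord35a (5.55). None of the 9 was called as varying between pools. The C/D snoRNAs called were Snord71 (5.99, 1.56 and 4.01 RPKM, adjusted p = 0.00926, limma) and Snord88a (0.32, 0.99 and 1.85 RPKM, adjusted p = 0.0121, limma). Neither has recovered reads. Snord71 was not called without pool 1 (adjusted p = 0.107, limma) or pool 2 (0.951), nor Snord88a without pool 1 (0.481) or pool 3 (0.349). Snord8, with 0.78, 1.84 and 0.42 RPKM, passed the 4-fold span but not the test.

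Levels of the small RNAs were set against the genes that contain them. In GENCODE, 69 of 76 lie inside a longer gene on the same strand, and the remaining 7 are Rmrp, Rpph1, Scarna2, Scarna17, Snora17, Snora43 and Snord104. For 67 the containing gene was in the tables, 49 genes in all. Across these 67 the rank correlation between the RPKM of the RNA and of the containing gene was -0.02. Points share pools and several share a gene, so no p is given. The median ratio of RNA to containing gene was 0.156, and 12 of 67 stood above it. Rpl13a, at 165 RPKM, contains Snord32a, Snord33, Snord34 and Snord35a, which had 3.68, 3.39, 3.38 and 5.55 RPKM. Snord37 stood at 3.83% ± 1.80 of Eef2. In all 12 the containing gene was at or under 8.64 RPKM, as with Snord42b at 9.20 RPKM inside Rpl23a at 1.39. No RNA of the 67 had a mean above 15.4 RPKM, so a low containing gene was given by this choice. Ribosomal protein genes have near-identical copies elsewhere in the genome, so their levels are uncertain. For 38 of the 67 an annotated exon of the containing gene overlaps the RNA. Reads of the host that cross a snoRNA cannot be told apart from reads of the snoRNA.

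Of the 7 RNAs that do not lie inside another gene on the same strand, 4 were called as differing between pools. Rmrp had 19.3, 3.18 and 9.1 RPKM in pools 1, 2 and 3, on 398, 84 and 177 reads (adjusted p = 0.000989, limma). Scarna2, a guide for spliceosomal RNA, had 19, 2.73 and 7.88 RPKM on 87, 16 and 34 reads (adjusted p = 0.000755, limma). Its reads were worked out with a RefSeq length of 61 bases, against 414 in GENCODE, so its level beside the other RNAs is uncertain. Scarna17 had 67.9, 23.7 and 48.6 RPKM on 316, 141 and 213 reads (adjusted p = 0.012, limma). In these 3 RNAs the pools stood in the order 1, 3, 2. Their 95% exact Poisson intervals, converted to RPKM, did not overlap between pools. Without pool 1 the adjusted p (limma) was 0.0504 for Rmrp, 0.0545 for Scarna2 and 0.119 for Scarna17, and without pool 2 it was 0.987 for Scarna17.

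Rpph1 followed another order. It had 16.5, 8.54 and 28.7 RPKM on 402, 267 and 660 reads (adjusted p = 0.00509, limma), lowest in pool 2 but highest in pool 3. Without pool 3 it was not called (adjusted p = 0.16, limma). Pool 2 was thus the lowest for Rmrp, Rpph1, Scarna2 and Scarna17, although it was the deepest library. Shared sequence makes the level of 3 of them uncertain. Of their 50-base stretches, 68.1% for Rpph1, 70% for Scarna17 and 32.3% for Rmrp occur in transcripts of other genes, against 0% for Scarna2. Rpph1 shares most with Ccnb1ip1, and Rmrp with Ccdc107, which overlaps it on the opposite strand. For all genes tested, pool 2 was the lowest after scaling in 34.1%. The lens fibre list had the same order of pools as Rpph1, whereas the pigment, cornea and muscle lists were lowest in pool 3. The part of these tissues in the result was not tested.

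Scarna9 was of another kind. It lies inside the gene listed as 5830418K08Rik and had 4.76, 0.5 and 0.34 RPKM (adjusted p = 0.000692, limma). Those values rest on 15, 2 and 1 reads, with 95% intervals of 8.40 to 24.7, 0.242 to 7.22 and 0.0253 to 5.57 reads. Pool 1 lies above the others, and pools 2 and 3 overlap. Without pool 1 the adjusted p was 0.99 (limma).

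Counting error was then set beside the spread. For each of the 62 small RNAs the variance of its reads between pools, at the depths given above, was divided by the variance that counting alone gives, so that 1 stands for counting alone. Across the 55 that lie inside another gene the median was 1.07, and 15 were over 3. Among the 7 that do not, the median was 37.3 and 5 were over 3. For the same fold this ratio grows with the number of reads, and the 7 had medians of 87, 84 and 78 reads in pools 1, 2 and 3 against 16, 23 and 15 for the 55. Among the 12 inside another gene with 112 or more reads in all, the fewest of the 7, the median was 3.70, 6 were over 3 and the highest was 7.92. Rpph1 had 160, Rmrp 153, Scarna17 58.3 and Scarna2 37.3, whereas the highest value inside another gene was 11.5 for Scarna9. The remaining 3 not inside another gene were Snora17 with 58, 43 and 48 reads and a value of 3.95, Snora43 with 75, 127 and 78, and Snord104 with 28, 54 and 30. The grouping comes from the annotation, and the pattern within it was seen before it was described.

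**Figure D5:**
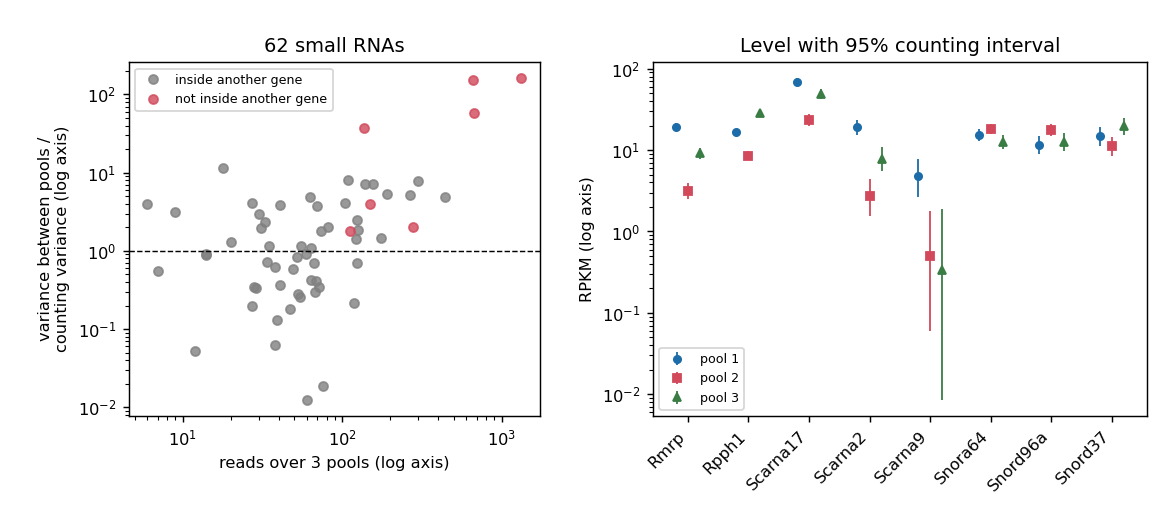
Left, variance of reads between pools over counting variance (log axis) against total reads (log axis) for 62 small RNAs, with a dashed line at 1 and a colour for RNAs that lie inside another gene. Right, RPKM (log axis) of 8 small RNAs per pool with 95% exact Poisson intervals on the reads, where Rmrp, Scarna17 and Scarna2 are highest in pool 1 and Snora64, Snord96a and Snord37 span less than 2-fold.

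Genes for proteins that act on these RNAs were read from lists. Of the box H/ACA particle genes (Dkc1, Nop10, Nhp2 and others) 0 of 6 tested were called, with a median of 7.20 RPKM. None of the 8 box C/D particle genes tested was called either (median 8.22 RPKM), nor any of the 9 protein genes of RNases P and MRP (8.41), which were led by Pop7 at 28.0 ± 6.74 RPKM. Spliced host genes of snoRNAs had a median of 12.96 RPKM and 0 of 21 called. In the Cajal body list 1 of 6 was called, Usp28 (26.7, 4.65 and 4.47 RPKM), and in the histone 3′-end processing list 1 of 12, Snrpb (103, 5.77 and 78.8 RPKM). Both have digit-extended symbols, as the macroH2A rows do.

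Histone chaperones did not pass the test either. Those that act on replacement histones had 0 of 12 called, with a median of 12.6 RPKM, led by Anp32e, which removes H2A.Z from chromatin, at 124 ± 14.4 RPKM (SD, n = 3). The replication-coupled list had 0 of 5 called and a median of 4.57 RPKM, led by Rbbp7 at 22.7 ± 4.1 and Rbbp4 at 18.3 ± 2.41.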

How the data were processed

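The authors deposited 1 table of decimals per biological replicate, read here as RPKM from the values alone (FPKM is equally possible). GSNAP, HTSeq and build mm9 are named, per the submitters' processing notes, with no version. Of 15468 rows, 3 repeated a symbol with identical values and were dropped. Members, lists and tests were chosen with earlier results of these data known. RPKM were divided by a trimmed mean of log ratios (30% and 5% trimmed; factors 0.983, 1.09 and 0.932) and taken as log2(RPKM + 0.1), which understates differences of low genes. Genes averaging at least 1 RPKM (12562) were tested with limma 3.58.1 (robust trended prior, R 4.3.3). Only the limma test was tried on simulated data, in the setting without digit-extended symbols. It called 44.8% of genes displaced by 1 log2 unit in 1 pool and 100% of those displaced by 2. A gene not called may therefore still differ between pools. The recovery of read numbers, the motif searches and the grouping by containing gene were chosen after seeing the data. With 1 group, p-values measure spread between pools. Named were members with a mean of 5 RPKM or more, called members, members with a span of 4-fold or more, and the leaders of each class and list. GENCODE M21 and RefSeq GRCm38.p6 gave lengths, containing genes and sequences, and no coordinates are printed. Python 3.11.15 was used.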

Additional observations from a re-analysis of the deposited data

How the results depend on the processing

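The difference between the medians of replacement and replication-dependent histones (3.54) was 2.85 with a pseudocount of 1, 1.83 among members averaging at least 1 RPKM, 4.53 after multiplication by transcript length and 3.02 without members that share 50% or more of their 50-mers (added after seeing the data), and 3.37 to 3.82 with a pool left out. Against the small RNAs it was 2.32, with 2.02 at a pseudocount of 1, 6.32 after multiplication by length and 2.22 to 2.48 with a pool left out. The replacement share of histone RPKM (60.7%) was 54.0% without digit-extended symbols, 70.2% after multiplication by length and 60.4% to 61.3% with a pool left out. All kept their direction. The lengths multiplied by were those of the longest GENCODE transcript for histones and of RefSeq for small RNAs. They may differ from the lengths the authors used, and Hist2h3c2-ps, which has no GENCODE transcript, was left out there. The number of genes called (683) was 202 without digit-extended symbols, 0 with limma's non-robust prior (704 genes and 12 members at an unadjusted p under 0.05), and 296 to 477 with a pool left out. Members called (12) became 0 with the non-robust prior, 23 without scaling between pools, and 4 (without pool 1) to 9 with a pool left out. Rmrp, Rpph1, Scarna2 and Scarna9 stayed called in 6 of 8 alternatives each, Hist1h4d and Hist2h4 in 3 of 8. Causes of these moves were not tested.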
